A study of Mus musculus with 31 samples.

Results

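The 7 later BXD strains of a whole-brain survey (BXD33, BXD34, BXD36, BXD38, BXD39, BXD40 and BXD42) were compared with 8 earlier strains whose arrays lay beside theirs in the data. This comparison used 15 of the 31 arrays of the series. Each array held RNA of a single BXD/TyJ strain, mixed from 3 male mice aged 8 weeks, in the Alexa Fluor 647 channel. The Alexa Fluor 555 channel of every array held whole-brain RNA of C57BL/6J males of the same age, and no array had the dyes exchanged. Each strain was represented by 1 array of 1 pool, so the spread between arrays combined strain, pool and array, and it was the only spread against which the groups could be judged.

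The 2 array groups, called strata here, were chosen by the measured values, as the labels used here name no batch. On the principal components of all 21262 features, stratum B was selected on the first component (28.7% of the variance), where its 7 arrays scored 0.27 to 0.32 and the others −0.21 to 0.05. Stratum A was selected on the second component (11.9% of the variance), where its 8 arrays scored 0.25 to 0.32 and the others −0.22 to 0.08. The members nearest the boundary were BXD28 at 0.27 in stratum B and BXD15 at 0.25 in stratum A. Stratum A held the later strains BXD33, BXD34, BXD39, BXD40 and BXD42 and the earlier strains BXD15, BXD22 and BXD27. Stratum B held the later strains BXD36 and BXD38 and the earlier strains BXD6, BXD8, BXD20, BXD23 and BXD28. The other 16 arrays were all of earlier strains and entered no comparison of the strata. These scores describe how the groups were formed and were not tested. The values of every gene contributed to them, whereas the division into later and earlier strains came from the strain numbers in the titles.

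**Figure D1:**
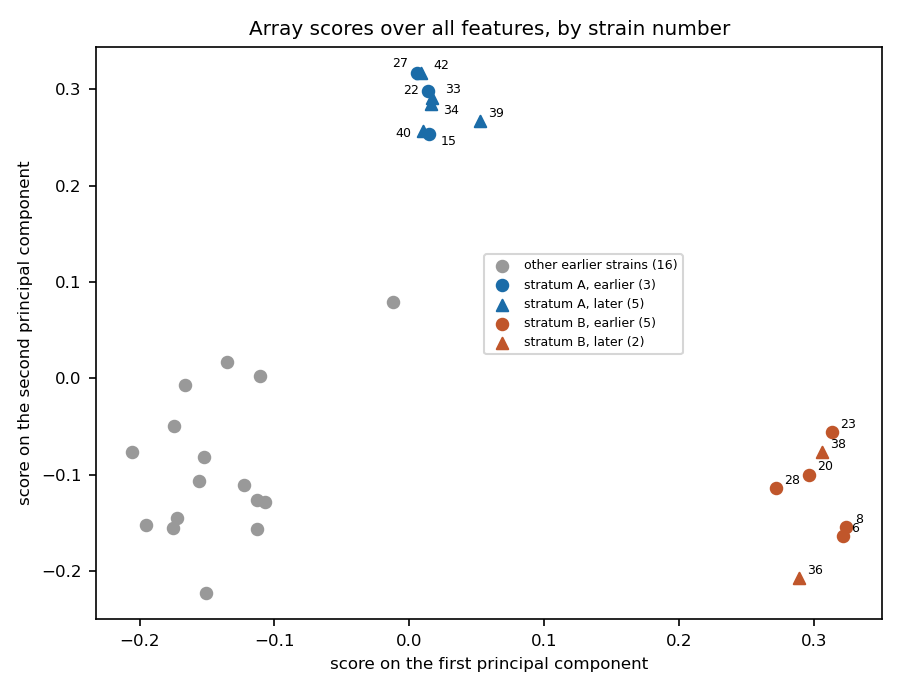
Scores of the 31 arrays on the first 2 principal components over all features (no unit), with strain numbers at the 15 arrays compared. Circles are earlier strains and triangles later strains. The 7 arrays of stratum B lie at 0.27 to 0.32 on the first component and the 8 arrays of stratum A at 0.25 to 0.32 on the second, and each stratum holds both kinds of strain.

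BXD strains are recombinant inbred lines made by crossing C57BL/6J with DBA/2J mice and then mating siblings over many generations, so that each line carries a fixed mosaic of the parents' alleles. The lines numbered from 33 to 42 were bred later than those up to 32. The few lines in each set can carry different shares of parental alleles, and parental stocks acquire new mutations between crosses. In this design strain set, parental stock and any difference in handling cannot be told apart.

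The deposited values were log ratios, read here as log2 of strain over C57BL/6J from the channel order. Neither the log base nor the direction is stated in the sources used here, so every sign below would turn with the opposite direction. Gabra2, a gene with a well known difference, went against this direction and is described near the end. Genes duplicated or deleted in the other parent were mixed. In the 16 other earlier strains the median was 0.40 for Glo1 (duplicated) and −0.29 for Klrd1 (deleted), the signs this direction gives. Klrd1 was negative in all 16 (−0.42 to −0.04), but had a mean of 0.09 in the earlier strains of stratum B. Alad (duplicated) had a median of 0.16 in the 16 strains but negative means in every group of strata A and B. As each strain carries a mosaic of alleles, these genes do not settle the direction. Differences are given as later minus earlier strains on the log ratio scale. Because a value is a ratio against brain RNA, it shows no absolute level, and the labelled tissue could not be checked from marker levels.

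No gene passed the test when later and earlier strains were compared with the stratum as a covariate. In limma, 0 of 21262 features (0%) had an adjusted p under 0.05, and the smallest adjusted p was 0.566. At an unadjusted p under 0.05 there were 1339 features (6.3%), of which 670 (3.15%) had positive and 669 (3.15%) negative differences. The median difference was −0.0025, and the median half-width of the 95% confidence interval of a difference was 0.23. The number of arrays thus limited the precision. This half-width is that of a single feature without adjustment, and it is no limit of detection. Larger differences also failed after adjustment over all features, such as Nudt12 at −0.88 and Abcc9 at 0.87 (adjusted p = 0.754 each in limma).

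The feature with the smallest p was Il18bp, whose product is a secreted protein that binds and neutralises interleukin-18. Its log ratios in the later strains of stratum A were 0.63 in BXD33, 0.74 in BXD34, 0.90 in BXD39, 0.84 in BXD40 and 0.60 in BXD42, against 0.09 in BXD15, 0.45 in BXD22 and 0.10 in BXD27. In stratum B they were 0.58 in BXD36 and 0.85 in BXD38, against 0.43 in BXD6, 0.08 in BXD8, 0.22 in BXD20, 0.21 in BXD23 and 0.0018 in BXD28. Every later array lay above every earlier array of its stratum, and the within-stratum differences were 0.53 in both. The combined difference of Il18bp was 0.53 ± 0.09 (SE; 7 later and 8 earlier arrays), with an adjusted p of 0.566 in limma. An exact permutation test of this gene alone within strata gave a two-sided p of 0.00085, the smallest that the 1176 relabellings allow, and the gene was picked from 21262 for its p. Leaving out each array in turn gave differences of 0.49 to 0.59, with adjusted p from 0.136 to 0.887. In the 16 other earlier strains Il18bp ranged from −0.28 to 0.65 with a median of 0.14, so 1 or more of them reached the level of later strains.

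Among genes of cell adhesion, Cdh9 encodes a type II cadherin. Its log ratio was 0.77, 0.82, 0.88, 0.57 and 0.71 in BXD33, BXD34, BXD39, BXD40 and BXD42, against 0.39, 0.56 and 0.35 in BXD15, BXD22 and BXD27. In stratum B it was 0.92 in BXD36 and 0.79 in BXD38, against 0.28, 0.53, 0.34, 0.30 and 0.06 in BXD6, BXD8, BXD20, BXD23 and BXD28. The groups touched in neither stratum, although BXD40 and BXD22 were only 0.57 and 0.56. The combined difference was 0.42 ± 0.08 (adjusted p = 0.754 in limma). In the 16 other earlier strains Cdh9 ranged from −0.53 to 0.95 with a median of 0.42. Lamc3, which encodes a laminin gamma chain, had a difference of 0.33 ± 0.09, with 0.14 in stratum A, where the groups overlapped, and 0.58 in stratum B. Cldn9, a claudin of tight junctions, had a difference of −0.44 ± 0.11, with later arrays of stratum A at 0.02 to 0.16 and earlier ones at 0.29 to 0.75. In stratum B its later arrays were at −0.50 and −0.19 and its earlier ones at −0.07 to 0.55.

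Immune genes other than Il18bp among the 12 positive genes were Tlr9, the endosomal receptor for unmethylated CpG DNA, and Il12a, which encodes the p35 subunit of interleukin-12. Tlr9 was 0.26, 0.41, 0.39, 0.42 and 0.44 in the later strains of stratum A, in order of strain number, and −0.08, 0.01 and 0.14 in the earlier ones. It was 0.51 and 0.49 in the later strains of stratum B, and 0.25, 0.44, 0.27, 0.18 and 0.23 in the earlier ones. Groups did not overlap in either stratum, and the combined difference was 0.30 ± 0.06. In the 16 other earlier strains Tlr9 ranged from −0.11 to 1.94 with a median of 0.24, so the highest of them exceeded all later strains. Il12a had a difference of 0.30 ± 0.08, with later arrays from −0.88 to −0.68 and earlier arrays from −1.43 to −0.94 in stratum A. The adjusted p in limma was 0.754 for both genes, as for all 23 genes named from the combined comparison after Il18bp.

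Of the remaining positive genes, Abcc9 encodes SUR2, the regulatory subunit of some ATP-sensitive potassium channels. Its combined difference of 0.87 ± 0.22 was made of 0.26 in stratum A and 1.68 in stratum B and is described with that stratum below. Tigd2, a gene derived from a DNA transposase, had a difference of 0.27 ± 0.06 and groups that did not overlap in either stratum. Arhgap42 had a difference of 0.30 ± 0.07, and Vasn, a membrane protein that binds TGF-beta, one of 0.30 ± 0.08. In both of these genes every later array lay above every earlier array of its stratum. The last 3 positive genes were 1700016D06Rik (0.50 ± 0.14), Tmem116 (0.27 ± 0.07) and Muc5b, a secreted mucin (0.29 ± 0.08), and the groups of these overlapped in stratum A.

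Among the 12 negative genes, Lpin1 makes the phosphatidate phosphatase lipin-1 of lipid synthesis. It was −0.10, −0.10, −0.23, −0.20 and −0.13 in BXD33, BXD34, BXD39, BXD40 and BXD42, against −0.01, −0.06 and 0.05 in BXD15, BXD22 and BXD27. In stratum B it was −0.29 in BXD36 and −0.47 in BXD38, against 0.19, 0.22, 0.27, 0.13 and 0.20 in the earlier strains. The groups stood apart in both strata, and the combined difference was −0.33 ± 0.08. The 16 other earlier strains had a median of −0.55, below all 7 later strains, and the difference turned to 0.07 when all 24 earlier strains were used without strata.

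Mcl1 encodes an anti-apoptotic member of the BCL2 family. Its values in stratum A were 0.32, 0.56, 0.39, 0.38 and 0.40 in the later strains and 0.95, 0.73 and 0.60 in the earlier strains. In stratum B they were 0.06 in both later strains and 0.15, 0.26, 0.35, 0.30 and 0.37 in the earlier strains. The groups did not overlap, and the combined difference was −0.30 ± 0.07. Dnajb1, a co-chaperone of Hsp70, had a difference of −0.37 ± 0.09. Its later arrays ran from −0.09 to 0.34 in stratum A, against 0.39 to 0.55, and were −0.40 and −0.0048 in stratum B, against 0.07 to 0.52.

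Kank1, an adaptor between focal adhesions and the cytoskeleton, had a difference of −0.74 ± 0.18 among the widest spreads. Its earlier strains of stratum A gave 1.82, 0.77 and 1.85, and its later strains 0.79, 1.15, 0.55, 1.06 and 0.70, so that BXD22 lay among the later ones. In stratum B, BXD36 and BXD38 were at −0.08 and 0.25, below the earlier strains at 0.45 to 1.23. Srp14 of the signal recognition particle differed by −0.28 ± 0.07 and the kinesin gene Kif12 by −0.33 ± 0.09, each with an overlap in 1 stratum. Morn3 (−0.28 ± 0.07) and 4930570E01Rik (−0.39 ± 0.08) had no overlap in either stratum, whereas 1700024B18Rik (−0.59 ± 0.15) overlapped in stratum A. Itpkb, the B isoform of inositol trisphosphate 3-kinase, differed by −0.63 ± 0.17, and Nudt12, a NUDIX hydrolase acting on NAD(H), by −0.88 ± 0.22. In these last genes the difference in stratum B, at −1.21 and −1.71, exceeded that in stratum A, at −0.19 and −0.25. The 24 genes were picked for their p and for the same sign in both strata, so their directions carry no further support.

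**Figure D2:**
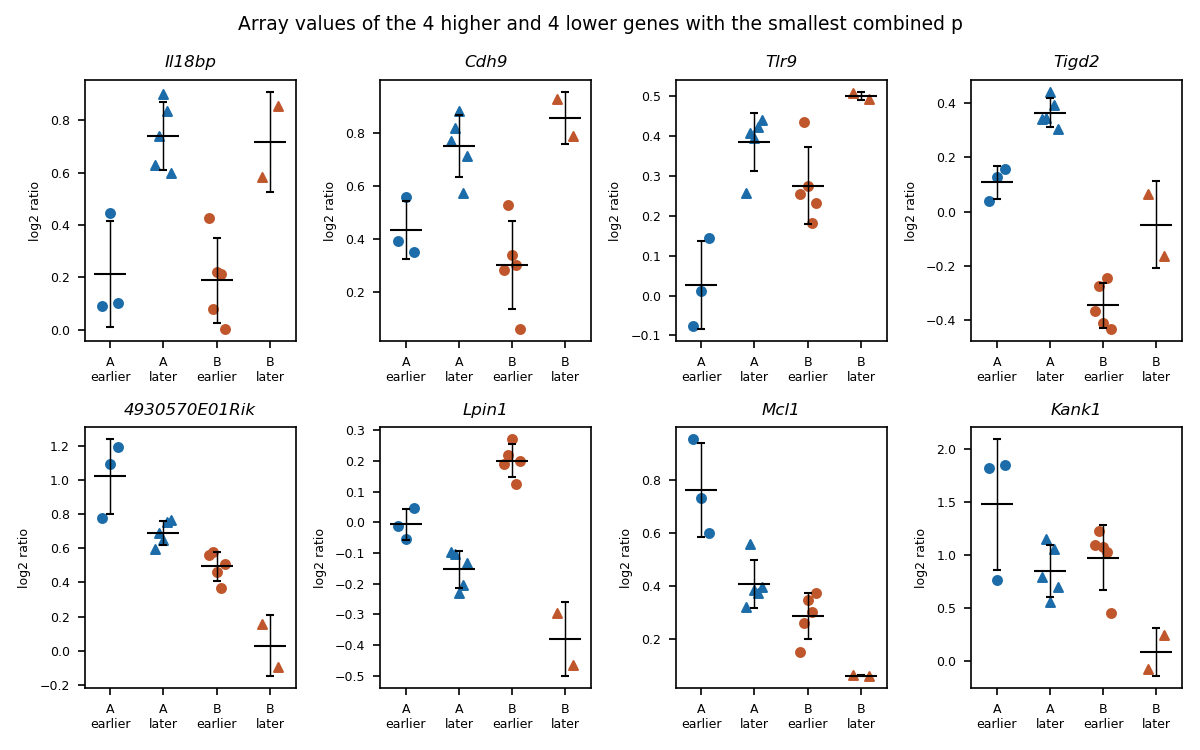
Log2 ratios by array (points) in the earlier and later strains of each stratum for the 4 positive and 4 negative genes with the smallest combined p. Horizontal lines are means, bars are 1 SD, and the vertical axis differs between panels. Il18bp lies at 0.58 to 0.90 in all 7 later strains and at 0.0018 to 0.45 in the 8 earlier ones, and Kank1 shows the overlap of BXD22 in stratum A.

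Of the 24 genes, 23 had a position in RefSeq (assembly GRCm38.p6, used for gene order only). They lay on 15 chromosomes, with 0 pairs within 10 places of each other in the order of the genes on the array. Genes further apart were not examined, so this count does not show whether any of them share an inherited parental segment.

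Separation of the groups was counted over all features. Later and earlier arrays did not overlap in both strata, in the same direction, in 61 features (0.287%), of which 36 had later strains above and 25 below. In a further 17 features (0.08%) they stood apart in opposite directions. In stratum A alone 887 features (4.17%) had no overlap, and in stratum B alone 2036 (9.58%) had none. Across features, the differences of the 2 strata had a correlation of 0.08 and the same sign in 53.5%, with no array in common between strata. Of 51 features with an unadjusted p under 0.05 in both strata, 33 had the same sign. For 1048 genes with several probes, the combined differences of the first 2 probes had the same sign in 50.8% of genes and a correlation of 0.03. The same sign was found in 49.9% of them in stratum A (correlation 0.01) and in 48.9% in stratum B (correlation 0.02). The genes named for the smallest combined p, and those named as calls of stratum B, were each read from 1 probe. No further probe could therefore check their differences.

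**Figure D3:**
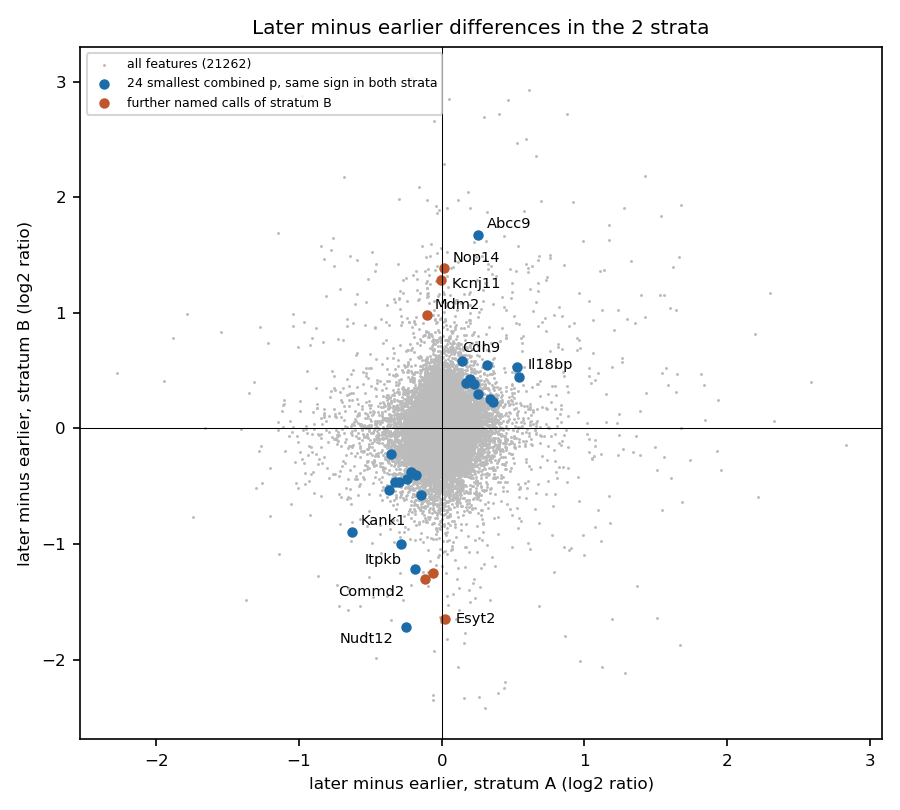
Later minus earlier difference (log2 ratio) in stratum A on the horizontal and in stratum B on the vertical axis, for 21262 features. Blue points are the 24 genes with the smallest combined p and the same sign in both strata, and orange points are the further genes named from stratum B. The cloud shows little slope (correlation 0.08), and the genes of stratum B lie along its vertical axis, with Abcc9 at 1.68 and Nudt12 at −1.71.

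Within stratum A, no gene passed the test. In limma 0 features (0%) had an adjusted p under 0.05, and 655 (3.08%) had an unadjusted p under 0.05, when the spread was estimated over all 15 arrays. With the 8 arrays of stratum A fitted alone, 0 features (0%) passed and 1188 (5.59%) had an unadjusted p under 0.05, and the smallest adjusted p was 0.0995. The arrays of this stratum were close to each other. The median SD over features was 0.12 among its later strains and 0.13 among its earlier ones, and pairs of a later and an earlier array had a mean correlation of 0.81.

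In stratum B, 30 features (0.141%) passed the test in the fit of all 15 arrays, 17 (0.08%) higher and 13 (0.0611%) lower in BXD36 and BXD38 than in the 5 earlier strains. At an unadjusted p under 0.05 there were 2338 features (11%). In all 30 the later and earlier arrays did not overlap, as in 2036 of all features (9.58%), and choosing features by their p nearly fixes this. These calls rest on a shared estimate of the spread. The arrays of stratum B varied more than those of stratum A, with a median residual SD of 0.22 against 0.14 when each stratum was fitted alone. Fitted on its own 7 arrays, stratum B had 0 features (0%) past the threshold, 1100 (5.17%) at an unadjusted p under 0.05 and a smallest adjusted p of 0.186 in limma. With array weights 0 passed as well. The words higher and lower in the next 3 paragraphs refer to the fit with the shared spread.

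Genes of ATP-sensitive potassium channels were among the 4 named genes with the greatest rise. Abcc9 was 1.45 in BXD36 and 0.93 in BXD38, against −0.67, −0.15, −0.77, −0.78 and −0.06 in BXD6, BXD8, BXD20, BXD23 and BXD28. It was higher by 1.68 ± 0.21 (SE; adjusted p = 0.00509 in limma). In stratum A its values were −0.97 to −0.57 in later and −1.07 to −0.93 in earlier strains, a difference of 0.26. Kcnj11, which encodes Kir6.2, the pore of such channels, was 1.52 and 0.96 in the later strains, against −0.25, 0.28, −0.04, −0.45 and 0.24. It was higher by 1.28 ± 0.18 (adjusted p = 0.0156), with −0.01 in stratum A. No group of genes was tested here, and the pairing of these channel genes was noticed after their values were seen.

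Nop14, a nucleolar protein of small ribosomal subunit assembly, was 1.48 and 1.20 in BXD36 and BXD38, against −0.57, 0.64, −0.15, −0.40 and 0.22. It was higher by 1.39 ± 0.25 (adjusted p = 0.0437). Mdm2, the ubiquitin ligase that restrains p53, was 0.86 and 1.08, against 0.06, 0.30, 0.08, −0.14 and −0.35, and was higher by 0.98 ± 0.14 (adjusted p = 0.0156). In stratum A the differences were 0.02 for Nop14 and −0.10 for Mdm2. Other named genes that rose in stratum B ranged from Lamc3, at 0.58, to Prom2, at 0.97. Named here after their values were seen, they included Plk2 (0.73), a polo-like kinase induced by neuronal activity, and Cops5 (0.93), the catalytic subunit of the COP9 signalosome.

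Nudt12 was −0.01 in BXD36 and −0.68 in BXD38, against 1.51, 1.00, 1.52, 1.57 and 1.26 in the earlier strains of stratum B, with a difference of −1.71 ± 0.19 (adjusted p = 0.00368 in limma). Esyt2, a tether between endoplasmic reticulum and plasma membrane, was −2.25 and −1.30, against −0.26, −0.45, 0.02, −0.01 and 0.09 (difference −1.65 ± 0.30, adjusted p = 0.0468). Commd2, a COMM domain protein, was −0.855 and −0.46, against 0.40 to 0.93 (difference −1.30 ± 0.16, adjusted p = 0.00557). Mrpl21, a protein of the large subunit of the mitochondrial ribosome, was −0.04 and −0.36, against 1.02, 1.20, 0.86, 0.97 and 1.20 (difference −1.25 ± 0.15, adjusted p = 0.00509). In Mrpl21 the 5 earlier strains of stratum B were the ones that stood apart: the 8 arrays of stratum A lay at −0.62 to −0.03 and the 16 other earlier strains had a median of −0.09. Lpin1 (−0.58) and Itpkb (−1.21) of the combined list also fell in this stratum.

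**Figure D4:**
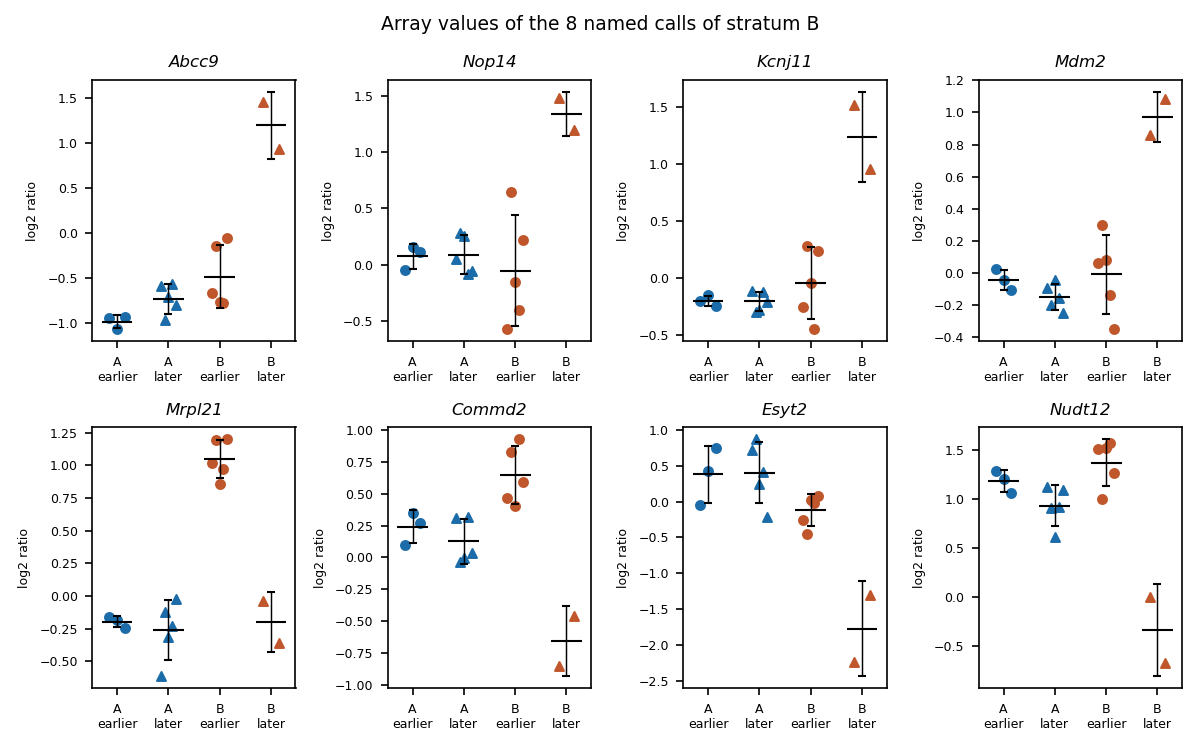
Log2 ratios by array (points) for the 8 genes named from stratum B, in the earlier and later strains of both strata, with means (lines) and 1 SD (bars). The vertical axis differs between panels. BXD36 and BXD38 lie outside the earlier strains of stratum B in each panel, and the groups of stratum A overlap in each, with differences from −0.25 to 0.26.

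The 30 features had the same sign in stratum A in 18, beside 53.5% of all features. In stratum A 1 of the 30, a spot without a gene symbol, had an unadjusted p under 0.05, beside 3.08% of all features. Both counts are near the background. The difference between the strata was tested directly. In limma 0 of 21262 features (0%) passed for the difference of stratum A from stratum B, with 1303 (6.13%) at an unadjusted p under 0.05. None of the 30 passed that test, for which Nudt12, Abcc9 and Mdm2 had an adjusted p of 0.266. The call changed when the 16 other earlier arrays entered the fit as a further stratum, which add to the estimate of the spread. Then 21 features passed for the difference between strata, 12 of them among the 30. They included Mdm2 (adjusted p = 0.023), Esyt2 (0.0318), Nudt12 and Mrpl21 (0.0351 each), Kcnj11 (0.0455) and Commd2 (0.0493). With the 15 arrays alone, the differences are not shown to be particular to stratum B.

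The positions of the spots were counted. In runs of 8 spots, the eighth spot held 6 of the 30 features (20%), against 12.3% of all features and 11.9% of those with an unadjusted p under 0.05 in the combined comparison. Abcc9, Kcnj11 and Mdm2 were among the 6. After centring each array within places the 30 features all passed again. With the eighth place left out, 14 features passed, all of them among the 30, of which 6 were removed by this choice. The calls were spread over 24 of 48 blocks, with at most 2 in a block. Whether the share at the eighth place differs from that of all features was not tested.

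The count in stratum B depended on which later array was kept. Without BXD36, 272 features passed, 38 higher and 234 lower, and 19 of the 30 were among them. Without BXD38, 491 passed, 304 higher and 187 lower, and 25 of the 30 were among them. In both cases the remaining later array was assumed to vary like the other groups. Without BXD8, an earlier strain, 80 passed. Abcc9, Kcnj11, Mdm2, Nudt12, Commd2 and Mrpl21 passed in each of the 15 fits without an array, whereas Nop14 and Esyt2 passed in 3 of them. Leaving out an array of stratum A keeps the differences in stratum B and alters only the shared spread, so such fits do not check them. With array weights, or with stratum B fitted alone, all 8 genes failed to pass.

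Ignoring the strata gave another picture. When the 7 later arrays were set against all 24 earlier arrays, 102 features (0.48%) passed in limma, 51 in each direction. The median size of their difference was 0.48 without and 0.25 with the strata. As they were chosen by the fit without strata, a smaller size in another fit is partly built in. All 102 kept their sign with strata, where 0 of them passed in limma. There the smallest adjusted p was 0.566 and 59 had an unadjusted p under 0.05. Fam174c, picked after its values were seen as the one with the lowest difference, is a case with a large change. Its difference was −1.19 against 24 strains and −0.23 within strata, since the earlier strains of strata A and B, with means of −2.28 and −1.88, lay near the later strains at −2.40 and −2.25, and the 16 other strains at −0.74. Gabra6, the cerebellar granule cell subunit of the GABA-A receptor, and Hspa5, the chaperone BiP of the endoplasmic reticulum, were the list members that passed against 24 strains. Gabra6 differed by −0.61 (adjusted p = 0.044) and by −0.52 within strata, and Hspa5 by −0.48 (adjusted p = 0.0349) and by −0.31 within strata. Of the 24 genes named from the combined comparison, 4 also passed against 24 strains. These were Il18bp at 0.52 (adjusted p = 0.0193), Morn3 at −0.41 (0.0491), Muc5b at 0.33 (0.0497) and Tmem116 at 0.27 (0.0497). Within strata their differences were 0.53, −0.28, 0.29 and 0.27, in the same order. Both comparisons use the same 7 later arrays. With 7 later against the 8 earlier arrays and no stratum term, 0 features passed.

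Lists of genes for cell types, brain regions and pathways were then read from the combined comparison. The 31 lists held 466 measured genes, none of which passed in limma. Unadjusted p-values under 0.05 were found for 32 members (6.87%), 9 positive and 23 negative, beside 6.3% of all features. List medians ran from −0.11 to 0.11, around a median of −0.03 over all members and −0.0025 over all features. As background for the signs below, 10466 of all features were positive and 10796 negative.

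Ribosomal proteins had the lowest median, at −0.11, with −0.09 in stratum A and −0.14 in stratum B. Of 60 measured genes 54 were negative, 0 passed and 3 had an unadjusted p under 0.05. These were Rpl26 (−0.37 ± 0.14), Rpl30 (−0.30 ± 0.12) and Rpl10 (−0.27 ± 0.11). By array the median of the list was −0.07, −0.14, −0.28, −0.19 and −0.17 in the later strains of stratum A, against 0.11, −0.16 and −0.17 in the earlier ones. In stratum B it was −0.29 and −0.37, against −0.17, −0.38, −0.21, −0.24 and 0.08. The groups overlapped in both strata, and BXD15 and BXD28 had the highest levels. Leaving out 1 array gave medians from −0.13 to −0.06, the latter without BXD15, and against 24 earlier strains it was −0.38.

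Other lists of basic cell machinery also had negative medians. So had lists of other kinds, such as variants private to C57BL/6J (−0.08) and clock genes (−0.06). For oxidative phosphorylation 44 of 68 genes were negative (median −0.05, with −0.02 in stratum A and −0.09 in stratum B). Its members with the smallest p were Ndufb11 (−0.27 ± 0.12) and Ndufa1 (−0.48 ± 0.21) of complex I and Cox6c of cytochrome c oxidase (−0.42 ± 0.18). For the proteasome 23 of 31 were negative (median −0.08, with −0.03 in stratum A and −0.11 in stratum B), with 0 at an unadjusted p under 0.05. For heat shock proteins and chaperones 9 of 10 were negative (median −0.10), led by Dnajb1 and Hspa5. Without BXD36 the heat shock median was −0.04 and without BXD38 it was −0.17. The proteasome median was −0.03 without BXD15 and 0.01 against 24 earlier strains. The 2 probes of Hspa5 agreed, at −0.30 and −0.32, yet its difference was −0.57 in stratum A and 0.03 in stratum B. None of these members passed.

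Markers of cell types, neurons among them, were read beside these genes. Endothelium and pericytes had 10 of 13 genes positive and a median of 0.09, but Cldn5, a tight junction protein (0.48 ± 0.18), and Slco1a4, a blood-brain barrier transporter (0.24 ± 0.11), had the opposite sign to Kdr, the VEGF receptor (−0.38 ± 0.12). Neuronal genes had 12 of 17 positive (median 0.06, and 0.03 without BXD36), with Syp, the synaptic vesicle protein synaptophysin, at 0.25 ± 0.08. Among astrocyte genes Sox9 was at −0.36 ± 0.15 and Ndrg2 at 0.27 ± 0.12, around a list median of −0.03. Myelin genes had 6 of 14 positive and 8 negative (median −0.0016), with Mal at −0.34 ± 0.14 and Cldn11 at −0.17 ± 0.08. Of 7 genes of meninges and fibroblasts 3 were positive and 4 negative (median −0.02). The lowest of them was Ptgds, made by meninges and other barrier cells, at −0.38 ± 0.13. In bulk tissue fewer cells of a type and less RNA per cell cannot be told apart.

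Choroid plexus (8 genes), microglia (10), blood (5), pituitary (8), ependyma (3) and oligodendrocyte precursors (3) had 0 members at an unadjusted p under 0.05, with medians from −0.06 to 0.11. An array stood apart in the pituitary list. Its median was 1.20 in BXD6, an earlier strain of stratum B, and −0.16 to 0.20 in the other 14 arrays. Without BXD6, 27 features passed in stratum B, 20 of them among the 30. The part of pituitary RNA in single genes was not tested. Y-linked genes and Xist had a median of 0.0022 in these male pools.

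Among lists of signalling and regulation, GABA-A receptor subunits had a median of −0.07, with 0.04 in stratum A and −0.16 in stratum B. This median turned to 0.01 without BXD36 and to 0.13 against 24 earlier strains. Its members included Gabra6 at −0.52 ± 0.18 and Gabrd, the extrasynaptic delta subunit, at 0.21 ± 0.07. Gabrd was 0.12, 0.21, 0.26, 0.28 and 0.11 in the later strains of stratum A, against 0.09, 0.10 and −0.03, and 0.56 and 0.33 in stratum B, against 0.03 to 0.26. Its groups did not overlap in either stratum. Among clock genes Per1 was at 0.19 ± 0.07 and Nr1d2, which encodes the repressor REV-ERB beta, at −0.20 ± 0.09. Immediate early genes had 9 positive and 5 negative members (median 0.02). The highest was Egr3 at 0.32 ± 0.14, with 0.08 in stratum A and 0.64 in stratum B. Hypothalamic peptides had 5 positive and 6 negative members (median −0.0055). The lowest was the neuropeptide gene Vip at −0.29 ± 0.13, with −0.48 in stratum A and −0.03 in stratum B. In limma the adjusted p of Gabra6, Gabrd, Per1, Nr1d2, Egr3 and Vip lay between 0.754 and 0.781.

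Enzymes of glutathione metabolism were divided, 12 positive and 12 negative, around a median of 0.0008. Gclm, the modifier subunit of the enzyme that limits glutathione synthesis, was at 0.23 ± 0.10 and Mgst1, a microsomal transferase, at 0.29 ± 0.10, whereas the transferase Gstm5 was at −0.28 ± 0.10. In cholesterol synthesis Nsdhl (−0.18 ± 0.08) and Msmo1 (−0.22 ± 0.10), which act on sterol C4 methyl groups, were negative in a list with a median of 0.03. MHC genes had 12 of 18 positive (median 0.05) and interferon response genes 11 of 18 negative (median −0.03). No member of either list had an unadjusted p under 0.05.

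**Figure D5:**
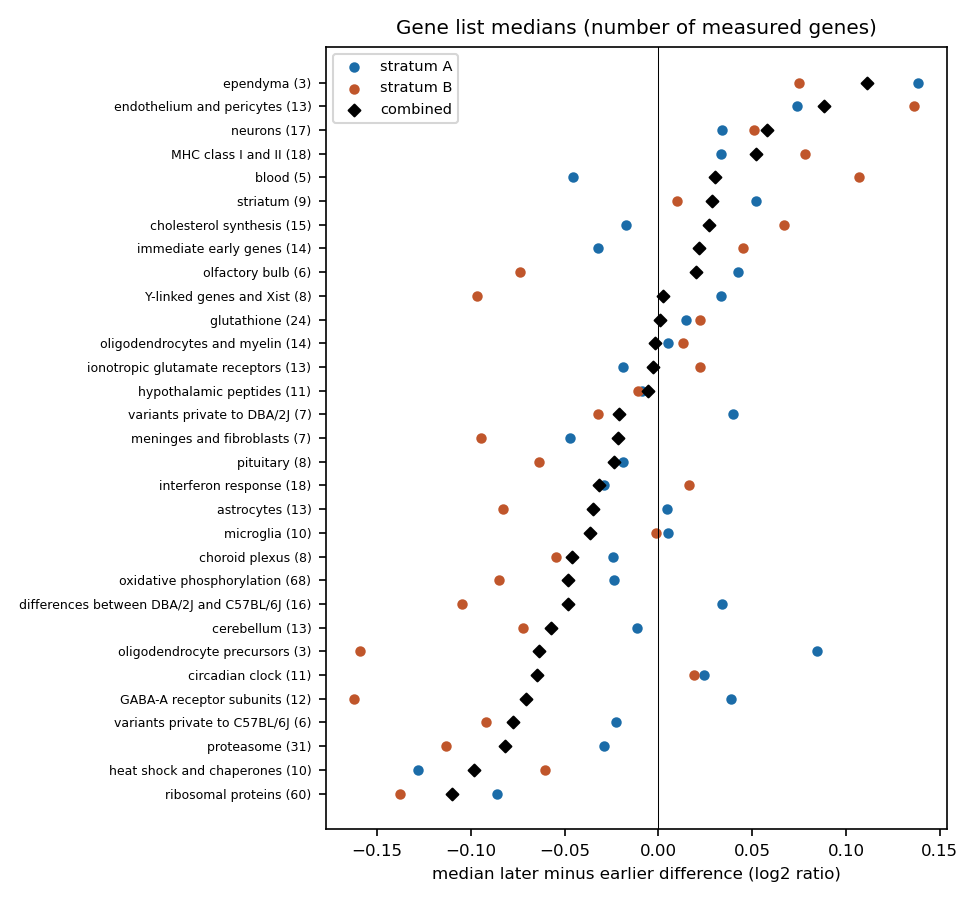
Median later minus earlier difference (log2 ratio) of each gene list in stratum A (blue), stratum B (orange) and combined (black), with the number of measured genes in brackets. Combined medians run from −0.11 for ribosomal proteins to 0.11 for the 3 ependymal genes.

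Genes listed as differing between the parental strains were read last. Among 6 genes listed for a variant private to C57BL/6J, 4 were negative (median −0.08). Gabra2, the GABA-A receptor subunit whose level is lowered in C57BL/6J by a private intronic deletion, differed by −0.26 ± 0.11 (adjusted p = 0.766). In stratum A the later strains gave −0.76, −0.80, −0.77, −0.91 and −0.74 and the earlier strains −0.49, −0.69 and −0.93, with overlap. In stratum B the later strains gave −0.38 and −0.72 and the earlier ones −0.27, 0.10, 0.21, −0.26 and −0.16, without overlap. Its 2 probes differed, with −0.13 and −0.38 combined and −0.11 and −0.84 in stratum B. In the 16 other earlier strains Gabra2 ranged from −1.29 to −0.48. A lowered level in C57BL/6J would make the ratio of strain over C57BL/6J positive, so these values oppose that background in the direction used here, and the cause was not tested.

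Nnt, a mitochondrial transhydrogenase partly deleted in C57BL/6J, differed by −0.06 ± 0.11. Where its probe lies relative to the deleted part is unknown here, so it checks nothing. The insulin-degrading enzyme gene Ide differed by −0.10 ± 0.18. Wdfy1 differed by −0.28 ± 0.17, from −0.01 in stratum A and −0.64 in stratum B, where BXD6 and BXD20 were at 1.07 and 0.55. Genes with variants private to DBA/2J had a median of −0.02 over 7 genes. Gpnmb, which carries a premature stop in DBA/2J, differed by 0.09 ± 0.08, and Klrd1, a natural killer cell receptor deleted in DBA/2J, by −0.02 ± 0.08. None of these 5 genes had an unadjusted p under 0.05. The confidence intervals without adjustment were −0.07 to 0.26 for Gpnmb and −0.18 to 0.14 for Klrd1. Both genes were read from 1 probe each, and probes of the same gene agreed little here. These intervals therefore describe single probes and do not bound the difference of either gene.

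Of 16 measured genes listed as differing between DBA/2J and C57BL/6J, 11 were negative (median −0.05). Prdx2, a peroxiredoxin, was at −0.30 ± 0.09 and Rab4a, a GTPase of endosome recycling, at −0.32 ± 0.13. Rab4a differed by −0.02 in stratum A and −0.72 in stratum B, where BXD36 was at −0.86 and BXD38 at −0.07, and its combined difference was −0.11 without BXD36. Glo1, the glyoxalase duplicated in DBA/2J, ranged in stratum B from −0.14 in BXD38, a later strain, to 1.37 in BXD6, an earlier strain. Its combined difference was −0.23 ± 0.21. Alad, also duplicated in DBA/2J, was at 0.14 ± 0.10. None of these genes passed, and the later and earlier strains overlapped in both strata for Glo1 and Alad.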

How the data were processed

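The series matrix holds, for each of 31 arrays, the authors' deposited log ratios of 23040 spots, taken as log2. R 2.0.0 and limma are named per the submitters' processing notes, with no role. No method of background correction or within-array normalization was given in the sources used here. Sorted values were identical between columns (largest difference 0, median 0.01, SD 0.60), as quantile normalisation between arrays leaves them, and a shift of a whole distribution would thereby be lost. Scanner intensities were not used here.

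Spots were named from the platform annotation (16874 with 1 symbol). Probes of a gene were averaged, giving 15096 genes, and 6166 spots without a single symbol were kept, in all 21262 features. Of the named probes, 16196 matched RefSeq (GRCm38.p6) by Entrez identifier. Place and block were read from spot numbers, with 48 blocks of 480 spots.

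Arrays were compared with limma 3.58.1 in R 4.3.3 (lmFit and eBayes, two-sided, Benjamini-Hochberg over all features at 0.05). The combined model had stratum as covariate. A second model with 4 group means, sharing 1 spread over 15 arrays, gave strata A and B and their difference. An exact permutation test over arrays within strata was run for named genes. The strata, members, gene lists and check genes were chosen with earlier results of these data known. Named genes were, for each direction, the 12 with the smallest combined p and the same sign in both strata (none passing), the 4 largest calls of each other comparison, for each list at most 3 members by smallest p, and 8 check genes. List members with an unadjusted p of 0.05 or more were then left out. Procedures were tested on simulated data. Alternatives changed the features, centring, prior, array weights, arrays and stratum term.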

Additional observations from a re-analysis of the deposited data

Results flagged for a closer look

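Single arrays that stood apart from the other 4 of their group were sought in 134 groups of 5 arrays (67 genes), by the gap to the nearest array over the range (above 0.71). This set apart 11 groups (8.21%). Chance alone sets apart about 1 in 20, so single cases carry little weight.

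Among the later strains of stratum A, Tlr9 was 0.26 in BXD33, with the others at 0.39 to 0.44. Prdx2 was 0.44 in BXD33, with the others at 0.17 to 0.24. Nr1d2 was −0.66 in BXD39, with the others at −0.36 to −0.26.

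Among the earlier strains of stratum B, BXD28 stood apart for Kank1 (0.45, others 1.03 to 1.23), Ndufb11 (0.40, others 0.71 to 0.81) and Mgst1 (−0.16, others −0.44 to −0.37). BXD20 stood apart for Il12a (−0.43, others −0.20 to −0.14) and Ndrg2 (−0.21, others −0.50 to −0.43). Gabra6 was −0.92 in BXD23 (others −1.30 to −1.23), Cox6c was −0.44 in BXD8 (others 0.19 to 0.40) and Nr1d2 was −0.54 in BXD6 (others −0.91 to −0.81). For Tlr9 and Il12a the groups of both strata remained apart with these arrays included.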

How the results depend on the processing

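The combined comparison had 0 calls in limma under each alternative with a stratum term that kept all arrays, 0 for 7 against 8 arrays without it, and 102 for 7 against 24. Leaving out 1 array gave 0 to 1, the 1 being a spot without a symbol when BXD8 was left out. Stratum A had 0 calls except 2 with all 31 arrays in 3 strata, and 0 to 3 on leaving out 1 array (3 without BXD22, including Mgat1 and Rprm). The 30 calls of stratum B became 48 with each probe on its own, 14 without the eighth place, 0 with array weights, 0 fitted alone, 258 with all 31 arrays, and 15 to 491 on leaving out 1 array. The difference between strata had 0 calls except 21 with all 31 arrays, and 0 to 146 on leaving out 1 array (133 without BXD36 and 146 without BXD38, where a lone later array was assumed to vary like the others). Gene lists had 0 calls except 2 for 7 against 24.

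Of 61 genes in the combined comparison, 1 reversed in alternatives with a stratum term that kept all arrays: Klrd1, at 0.028 with array weights and from −0.0585 to 0.0343 on leaving out 1 array, reversed in 3 of those fits. Without the term, 7 against 8 turned Nr1d2 to 0.0094 and Gclm to −0.0826. For 7 against 24 the differences turned to −0.0248 for Tigd2, 0.041 for 4930570E01Rik, 0.0688 for Lpin1, 0.0561 for 1700024B18Rik, 0.0249 for Kif12, 0.0124 for Gabra2, 0.11 for Mal, −0.13 for Gclm, 0.13 for Nsdhl, 0.185 for Msmo1, 0.11 for Ide, 0.0566 for Klrd1 and −0.0851 for Alad. The cause was not tested. Leaving out 1 array moved the difference of 24 of the 61 genes by over 1.5 times, including Rab4a (−0.38 to −0.11), Gabra6 (−0.65 to −0.30), Msmo1 (−0.28 to −0.08), Vip (−0.36 to −0.12) and Vasn (0.19 to 0.35).

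No paired analysis was possible because each array held a different strain, and no label pairs a later strain with an earlier one. Limits are the 2 later arrays of stratum B, 1 pool per strain, strata taken from the values, an unstated log base and direction, and no signal over background.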

Other observations

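Later and earlier arrays stood apart in both strata, in the same direction, in 61 of 21262 features (0.287%). Further genes among these were named after their values were seen, and none passed the test. Ncstn, which encodes nicastrin of the gamma-secretase complex, had a combined difference of 0.27 ± 0.08, with 0.27 in both strata. Htt, the huntingtin gene, had a difference of 0.16 ± 0.06, and Erbb2, a receptor tyrosine kinase, one of 0.17 ± 0.06 as the mean of 3 probes. Differences below 0 were found for Sesn1, a stress-induced inhibitor of mTORC1 signalling (−0.24 ± 0.07), and Nop9, a nucleolar RNA-binding protein (−0.21 ± 0.06). Grb10, an imprinted adaptor of insulin signalling, differed by −0.24 ± 0.08 as the mean of its probes at places 7 and 2. The transcription factor Nfix differed by −0.23 ± 0.09. Values of single probes are not given here for Erbb2 and Grb10.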
